A study of Mus musculus with 13 samples.

Results

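The uroplakin genes were followed across the RNA-Seq libraries of P4 back skin from WT mice and from those whose genotype, K14Cre+Kctd1 fl/fl Kctd15 fl/fl, is labelled DKO. The family comprised 6 of the 49315 genes in each count file, namely *Upk1a*, *Upk1b*, *Upk2*, *Upk3a*, *Upk3b* and *Upk3bl*. It was chosen by gene name, with the WT and DKO levels of these libraries already known, so the member values below are a description and carry no test. In the P4 libraries, *Upk3bl* and *Upk2* were higher and *Upk1b* and *Upk3b* lower in every library labelled DKO than in every WT library. *Upk1a* overlapped between the groups and *Upk3a* had no counts. Of all genes tested, 7.24% were higher and 5.96% lower in every DKO library than in every WT library. These shares do not include *Upk2* and *Upk3b*, which a filter on low counts removed. *Upk3b* held only 3, 3 and 4 counts in the DKO libraries.

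Uroplakins are the integral membrane proteins of the asymmetric unit membrane, the rigid plaques that cover the luminal face of the umbrella cells of the bladder. UPK1A and UPK1B are tetraspanins that each pair with a single-pass membrane protein, UPK1A with UPK2 and UPK1B with UPK3A or UPK3B. *Upk3b* is also a marker of mesothelium, and *Upk3bl* encodes a protein similar to UPK3B. Skin is not a tissue in which urothelial plaques are known.

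KCTD1 and KCTD15 are related proteins that bind AP-2 transcription factors, and the study deleted both genes in keratinocytes. The P4 libraries came from full-thickness back skin at postnatal day 4, from 3 WT mice and 3 mice labelled DKO, with 1 library per mouse. The paper describes the WT mice as littermates of the DKO mice. In the DKO mice, Cre is driven by the keratin 14 promoter and removes exon 3 of *Kctd1* and exon 4 of *Kctd15*, and the skin used also holds dermal, muscle and other cells in which this Cre is not active. The series also has epidermis from mice aged 3 weeks, 3 labelled K14Cre+Kctd15 fl/fl and 4 labelled DKO, but these 7 files list a count of 0 for every gene, and uroplakins in epidermis were not analysed here. The P4 libraries held between 11263863 and 17643043 counts on genes, and 3 counts, the floor used here, corresponded to 0.17 to 0.266 CPM, counts scaled to the total count of the library. The counts of *Kctd1* and *Kctd15* were not lower in the libraries labelled DKO. *Kctd1* ranged from 410 to 443 normalized counts in WT and from 506 to 985 in DKO libraries, and *Kctd15* from 736 to 763 and from 1130 to 1510. Counts over a whole gene do not show whether a single exon was removed, so they do not check the labels. The paper reports that RNA-Seq showed the removal of these exons in epidermal sheets of the single knockouts, and also in mice of the DKO genotype. DKO stands below for libraries that carry that label.

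The sequences of *Upk3b* and *Upk3bl* are shown because these paralogs lie next to each other on chromosome 5 on the same strand and differed between the groups in opposite directions. For *Upk3b* that difference lay near the floor of 3 counts. The annotated end of *Upk3b* and the annotated start of *Upk3bl* are 8004 bp apart in GRCm38. Exon 2 of the coding transcript of each gene, from GENCODE, is given with the bases that are identical in the alignment of both in capitals, 92 of 155 aligned columns or 59.4%.
Upk3b exon 2, chr5:136039042-136039191, plus strand: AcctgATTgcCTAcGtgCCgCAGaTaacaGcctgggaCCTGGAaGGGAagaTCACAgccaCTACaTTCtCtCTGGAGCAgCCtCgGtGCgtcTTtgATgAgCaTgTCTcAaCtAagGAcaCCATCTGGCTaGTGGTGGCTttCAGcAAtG
Upk3bl exon 2, chr5:136059731-136059883, plus strand: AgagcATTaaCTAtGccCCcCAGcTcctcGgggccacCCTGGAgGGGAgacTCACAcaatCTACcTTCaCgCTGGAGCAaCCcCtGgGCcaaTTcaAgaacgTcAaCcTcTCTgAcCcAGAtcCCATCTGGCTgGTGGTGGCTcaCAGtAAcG
Across the coding sequences of both genes, 53.5% of the aligned columns were identical. *Upk1a* and *Upk1b*, the tetraspanin pair, were 55.3% identical. The longest exact run shared by the annotated transcripts of *Upk3b* and *Upk3bl* was 12 bases, and by any pair of members 14 bases, against reads of 150 bases. None of the 5 annotated genes on either side of a member overlapped it. A read within an exon of one member therefore had no matching stretch of its own length in another.

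Promoter sequences of RefSeq (GRCm38.p6) were found for 4 of the 6 members, *Upk1a*, *Upk3a*, *Upk3b* and *Upk3bl*. The 250 bases before the RefSeq start are printed for the adjacent pair, with matches to the motifs searched in capitals. The RefSeq start of *Upk3bl* lies 2775 bp inside the gene as counted, which has 6 annotated transcripts, and that of *Upk3b* is at the gene's annotated start.
Upk3b promoter, chr5:136038246-136038495, plus strand: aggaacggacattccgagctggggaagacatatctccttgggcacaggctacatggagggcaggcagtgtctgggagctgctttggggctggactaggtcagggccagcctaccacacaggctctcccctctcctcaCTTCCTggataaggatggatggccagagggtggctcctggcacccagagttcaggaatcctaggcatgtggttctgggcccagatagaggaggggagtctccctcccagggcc
Upk3bl promoter, chr5:136057017-136057266, plus strand: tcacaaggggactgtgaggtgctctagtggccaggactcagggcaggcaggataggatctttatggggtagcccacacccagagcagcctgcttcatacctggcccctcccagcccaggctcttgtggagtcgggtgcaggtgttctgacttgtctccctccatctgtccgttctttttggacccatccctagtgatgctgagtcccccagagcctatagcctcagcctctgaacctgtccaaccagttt
The motifs searched on both strands, none of which overlapped another in these windows, were GCCNNNGGC of AP-2, AACCGGTT of grainyhead-like factors, GGGCGG of KLF and SP factors, AGATAA of GATA factors, AGGAAG of ETS factors and the TATA box TATAAA. Of 32817 RefSeq promoter windows of this length, 13.7% held the AP-2 letters, 0.116% the grainyhead-like, 32.7% the KLF and SP, 9.99% the GATA, 29.5% the ETS and 12.4% the TATA letters. The *Upk3b* window held 1 match, the ETS letters on the opposite strand, starting 113 bases before the start. The *Upk3bl* and *Upk1a* windows held none of the 6 motifs, and the *Upk3a* window held the KLF and SP letters at 2 places and the GATA letters at 1. The letters of AP-2 were in none of the 4 windows, which says nothing of binding elsewhere.

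*Upk3bl* (ENSMUSG00000006143, chr5:136054492-136064326, plus strand) was the most abundant uroplakin in DKO skin. WT replicates 1 to 3 held 6, 9 and 15 counts of it, and DKO replicates 1 to 3 held 57, 118 and 78. All 3 DKO libraries were above all 3 WT libraries, and the lowest DKO library held more counts than the WT libraries together. In normalized counts (counts divided by the TMM effective library size and multiplied by the mean of these sizes), the levels were 8.86 ± 3.52 in WT and 94.2 ± 31.1 in DKO skin (SD, n = 3 each). The log2 fold change fitted by edgeR was 3.38 (SE 0.38), a 10.4-fold higher level, and 2 of the 20168 genes tested had a larger positive log2 fold change. In whole skin, more cells that express a gene and more RNA per cell cannot be told apart.

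The difference in *Upk3bl* was seen within both sets of mice that share a number in their labels. With 2 mice per genotype it was 6.88 against 104 normalized counts, and in the single WT and DKO mice of the other number 12.8 against 74.9. The WT mouse with the most *Upk3bl* and the DKO mouse with the least shared this second number. As reads per kilobase of exon scaled to the effective library size (RPKM), *Upk3bl* was at 0.448 ± 0.178 in WT and 4.77 ± 1.57 in DKO libraries. Of the tested genes, 7.33% had a lower mean RPKM than *Upk3bl* in WT and 51.3% in DKO skin, so its level was near the bottom of the tested genes in WT and near their middle in DKO libraries.

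*Upk2* (ENSMUSG00000041523, chr9:44452715-44454976, minus strand), the partner of UPK1A, was almost without counts in WT skin. There was 1 count in WT replicate 1 and 0 in WT replicates 2 and 3, against 6, 41 and 21 counts in DKO replicates 1 to 3. The groups did not overlap, and the DKO libraries varied among themselves from 7.89 to 45.2 normalized counts. The ratio of the pooled counts, 68 in DKO against 1 in WT and scaled to library size, was 84.7 with an exact 95% interval of 14.7 to 3390. Because it rests on a single WT count, the size of the difference is known only within these wide bounds, which cover counting error and not the spread between mice. In DKO libraries *Upk2* was at 1.5 ± 1.15 RPKM, below *Upk3bl* in each of them.

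**Figure D1:**
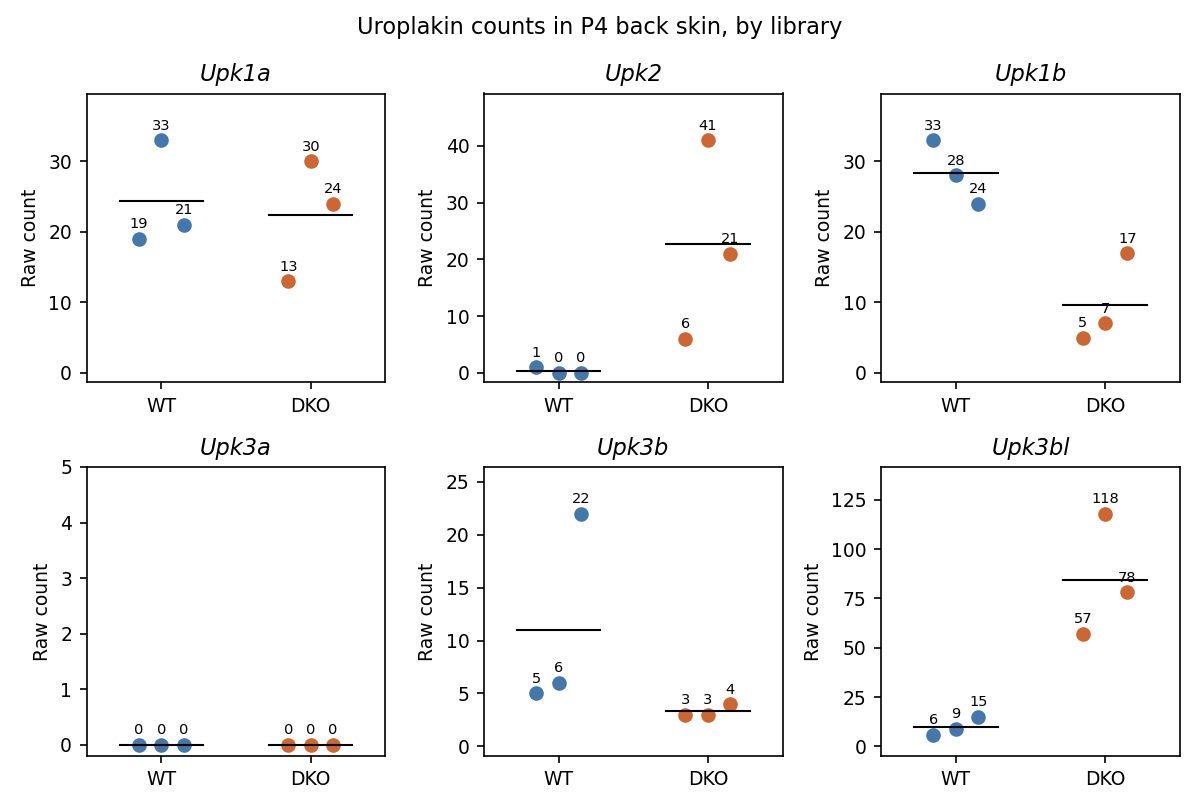
Raw counts of the 6 uroplakin genes (y axis, linear, one scale per gene) in the 3 WT and 3 DKO libraries of P4 back skin, with replicates 1 to 3 from left to right, the count printed above each point and a line at the group mean. *Upk3bl* is at 6 to 15 counts in WT and 57 to 118 in DKO libraries, *Upk2* at 0 or 1 and at 6 to 41, and *Upk3a* is at 0 throughout.

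*Upk1a* (ENSMUSG00000006313, chr7:30603092-30612847, minus strand), the tetraspanin partner of UPK2, had counts of 19, 33 and 21 in WT and 13, 30 and 24 in DKO libraries. The groups overlapped over their whole ranges. The normalized counts were 21.8 ± 5.44 in WT and 24.7 ± 8.03 in DKO skin, with a fitted log2 fold change of 0.19 (SE 0.373). Without DKO replicate 2 the fitted value was -0.07, so no direction is given for this gene. *Upk1a* thus showed no separation of the groups where *Upk2*, whose protein pairs with UPK1A in urothelium, did.

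*Upk1b* (ENSMUSG00000049436, chr16:38773184-38800203, minus strand), the tetraspanin that pairs with the UPK3 proteins, went the other way. Its counts were 33, 28 and 24 in WT and 5, 7 and 17 in DKO libraries. DKO replicate 3 came close to the WT libraries, with 16.9 normalized counts against a lowest WT value of 20.5, and the groups did not overlap. The normalized counts were 26 ± 6.83 in WT and 10.4 ± 5.67 in DKO skin, a fitted log2 fold change of -1.27 (SE 0.449), or a 2.41-fold lower level in DKO. Within the 2 sets of mice that share a label number, the log2 ratios were -1.22 and -1.64. *Upk1b* was kept by the filter on low counts because of its level in WT libraries, and *Upk3bl* because of its level in DKO libraries.

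*Upk3b* (ENSMUSG00000042985, chr5:136038496-136046487, plus strand), the neighbour and paralog of *Upk3bl*, had counts of 5, 6 and 22 in WT and 3, 3 and 4 in DKO libraries. The WT libraries did not agree among themselves, and WT replicate 3 supplied 22 of the 33 WT counts. The pooled counts were 2.65-fold higher in WT (exact 95% interval 1.28 to 6.03, counting error only). Without WT replicate 3 the log2 ratio of mean normalized counts was -0.45 in place of -1.37, so the size of the *Upk3b* difference rests on that library. Its level per length was the lowest of the members with counts in DKO skin, at 0.0699 ± 0.00705 RPKM, against 0.18 ± 0.148 RPKM in WT.

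*Upk3a* (ENSMUSG00000022435, chr15:85017141-85022560, plus strand), the partner of UPK1B in urothelial plaques, had 0 counts in all 6 P4 libraries. At this depth a level under 0.17 to 0.266 CPM, which is 3 counts in a library, was not detectable. Of the pair of UPK1A and UPK2, *Upk2* alone was higher in DKO skin, and of the pair of UPK1B and UPK3A, *Upk1b* was lower and *Upk3a* without counts.

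Ordered by mean RPKM, the WT levels were *Upk1a* (1.01 ± 0.252), *Upk1b* (0.967 ± 0.254), *Upk3bl* (0.448 ± 0.178), *Upk3b* (0.18 ± 0.148) and *Upk2* (0.0207 ± 0.0358), with *Upk3a* at 0. In that order the ranges of *Upk1a* and *Upk1b* overlapped, as did those of *Upk3bl* and *Upk3b*, while *Upk1b* was above *Upk3bl* in every library. In DKO skin the order was *Upk3bl* (4.77 ± 1.57), *Upk2* (1.5 ± 1.15), *Upk1a* (1.14 ± 0.372), *Upk1b* (0.388 ± 0.211) and *Upk3b* (0.0699 ± 0.00705). *Upk2* and *Upk1a* overlapped there, and *Upk3bl* lay above all other members in each DKO library.

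The make-up of the family changed with these levels. WT replicates 1 to 3 held 65.2, 64.5 and 70.2 normalized counts of all members together, and DKO replicates 1 to 3 held 110, 220 and 143. *Upk3bl* contributed between 9.38% and 18.3% of the family's counts in WT libraries and between 54.2% and 67.9% in DKO libraries. The share of *Upk1b* went the other way, from 29.3% to 51.6% in WT to 3.52% to 11.8% in DKO libraries. Shares add up to the whole within a library, so that of *Upk1a* was lower in DKO, at 15.1% to 16.7% against 25.6% to 43.4%, although its own level overlapped.

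**Figure D2:**
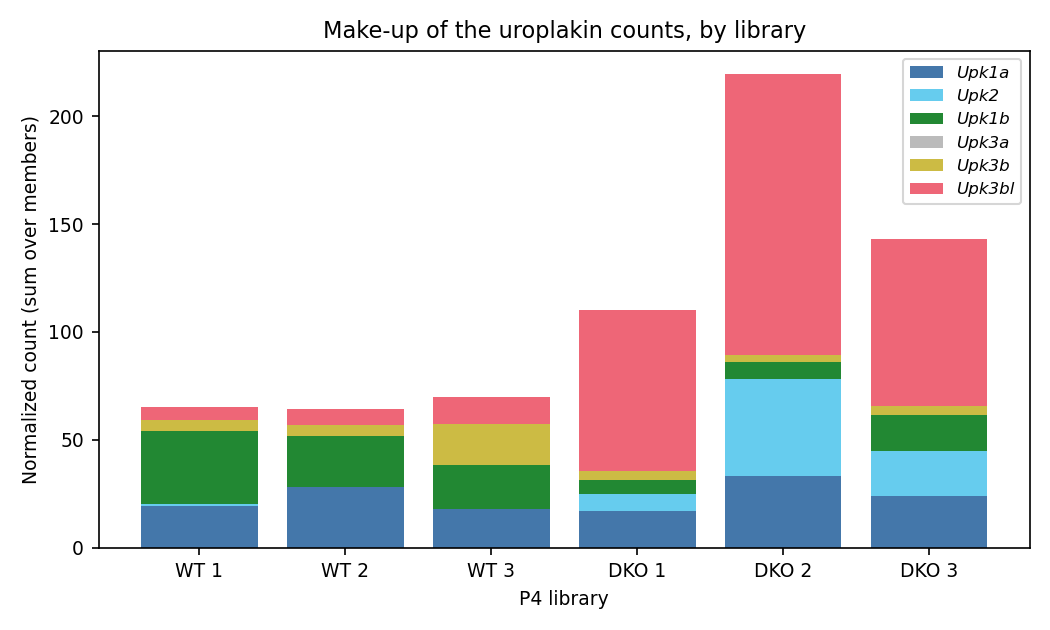
Normalized counts of the uroplakin genes (y axis, linear, stacked by gene) in each of the 6 P4 libraries (x axis). The bars reach 64.5 to 70.2 in the WT libraries and 110 to 220 in the DKO libraries, where *Upk3bl* makes up 54.2% to 67.9%.

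Of the 6 members, 3 passed the filter on low counts (*Upk1a*, *Upk1b* and *Upk3bl*) and 3 did not (*Upk2*, *Upk3b* and *Upk3a*). At an adjusted p below 0.05 and an absolute log2 fold change above 1, edgeR called 1 member, *Upk3bl*, in a background of 0.0694% of the genes tested (14 genes, 8 higher and 6 lower in DKO). Without the filter it called 2 members, *Upk2* and *Upk3bl*, and 0.624% of 33677 genes. DESeq2 called the same 2 members and 0.783% of the 19663 genes with an adjusted p. Among the genes tested, 7.24% had all 3 DKO libraries above all WT libraries and 5.96% had them below. *Upk2* and *Upk3b*, which did not pass the filter, are not among the genes of these shares. Since the members were chosen on this contrast, nothing is read from these counts. When a single WT library or DKO replicate 3 was left out, *Upk3bl* was no longer called by edgeR, and without DKO replicate 1 or 2 it was. Its log2 fold change was between 3.08 and 3.73 in the 6 fits that left out 1 library.

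**Figure D3:**
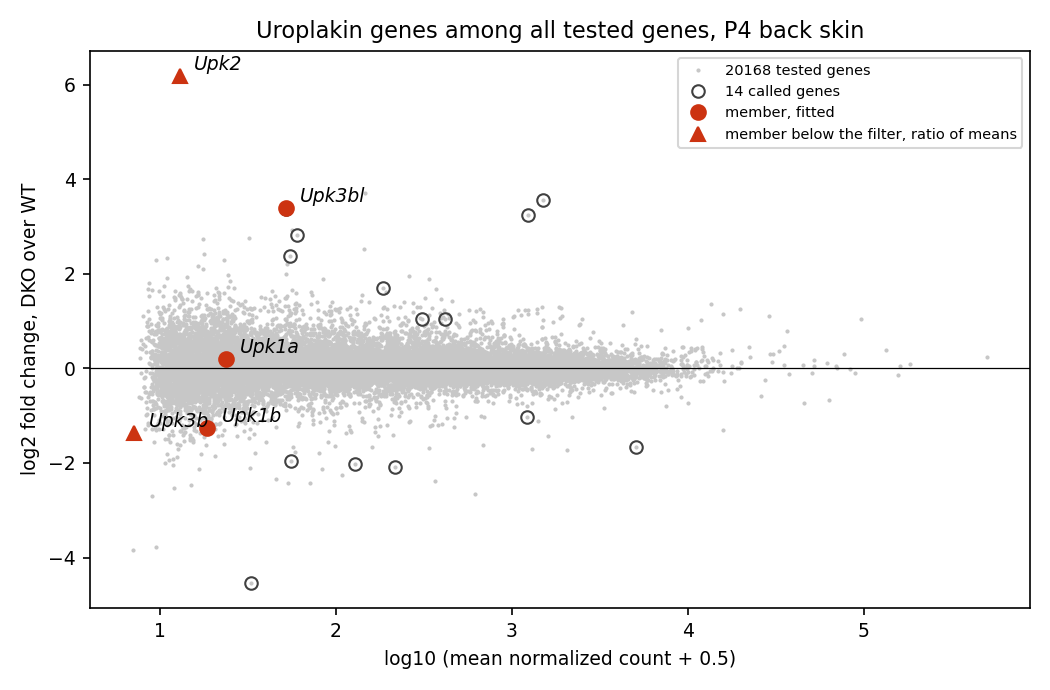
Log2 fold change between DKO and WT libraries (y axis) against the log10 of the mean normalized count plus 0.5 (x axis) for 20168 tested genes in gray, with the 14 called genes circled and the uroplakin genes in red. Circles are fitted values, and triangles are log2 ratios of mean normalized counts of *Upk2* (6.18) and *Upk3b* (-1.37), which the filter removed, while *Upk3a* has no value.

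The genes that serve uroplakins elsewhere were then examined, since the rule did not use them. Uroplakin plaques reach the surface in fusiform vesicles. The list held 10 genes of uroplakin traffic, not all of them of that step, of which 9 were tested. No gene of the list was called by edgeR or DESeq2, and 0 of 9 had an unadjusted edgeR p below 0.05, against 7.5% of all genes tested. The median log2 fold change was 0.05 (0.02 over all genes), with values from -0.19 to 0.58. The smallest p belonged to *Mal*, a raft protein of apical transport, at 53.7 ± 5.73 normalized counts in WT and 80.7 ± 32.7 in DKO libraries (edgeR adjusted p = 0.769). *Myo5b*, a vesicle motor, had a log2 fold change of 0.18 (SE 0.141) and *Vps33a*, a membrane fusion factor, 0.17 (SE 0.145). *Snx31*, a sorting nexin that binds uroplakins, had 1 count in each group.

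Transcription factors of urothelial differentiation were a list of 15 genes, of which 14 were tested and none was called by either tool. The list is not particular to urothelium, since *Trp63*, for example, was at 7480 normalized counts in WT skin. The median log2 fold change was 0.06, with 10 of 14 values above 0. The 1 unadjusted p below 0.05 was that of *Ehf*, an epithelial ETS factor, with 419 ± 33.4 normalized counts in WT and 318 ± 41.9 in DKO libraries (log2 fold change -0.40, SE 0.155, edgeR adjusted p = 0.564). *Irf1*, an interferon-responsive factor, had a log2 fold change of 0.52 (SE 0.255) and *Tfap2c*, an AP-2 factor, of -0.27 (SE 0.151). *Foxa1* had 7 counts in the WT libraries together and 1 in the DKO libraries.

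Other markers of urothelium (17 keratins, claudins, junction proteins and surface proteins, of which 15 were tested) had a median log2 fold change of -0.14, and 10 of 15 were below 0. None was called by either tool, and 2 had an unadjusted p below 0.05, both lower in DKO. These were *Krt8*, a simple-epithelium keratin, with counts of 38, 49 and 17 in WT and 6, 14 and 3 in DKO libraries (log2 fold change -1.85, SE 0.594, edgeR adjusted p = 0.434), and *Cldn8*, a claudin, with 346 ± 34 against 238 ± 51.4 normalized counts (edgeR adjusted p = 0.485). The junction protein gene *Tjp1* had a log2 fold change of -0.21 (SE 0.12). It was at 4350 normalized counts in WT skin, so this list is not particular to urothelium either.

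The other tetraspanins, relatives of UPK1A and UPK1B, were 29 genes, of which 28 were tested and none was called by either tool. Their median log2 fold change was 0.07, with values from -0.42 to 0.63. An unadjusted p below 0.05 was found for *Tspan18* and *Cd82*, higher in DKO libraries with log2 fold changes of 0.49 (SE 0.154) and 0.63 (SE 0.228), and for *Tspan6*, lower with -0.42 (SE 0.152). The smallest edgeR adjusted p of the list was 0.423.

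Mesothelial markers were followed because *Upk3b* marks mesothelium. Of 10 genes, 4 were tested and none was called by either tool, with a median log2 fold change of -0.02. *Rspo1*, a Wnt agonist, had the 1 unadjusted p below 0.05, at 95.3 ± 31.8 normalized counts in WT and 160 ± 41.4 in DKO libraries (edgeR adjusted p = 0.545). *Gpm6a*, a membrane glycoprotein, had a log2 fold change of -0.39 (SE 0.278) and *Bnc1*, a zinc finger protein also found in keratinocytes, of -0.09 (SE 0.146). The summed level of the list was 85.5 to 87.5 CPM in WT and 74.6 to 92 CPM in DKO libraries. Most of this sum was *Bnc1*, at 1030 ± 36.2 normalized counts in WT and 971 ± 154 in DKO libraries. The sum is therefore not a measure of mesothelium in the skin. The defining markers *Msln*, *Wt1* and *Lrrn4* held at most 3 counts in any library, and *Calb2* was at 0 in all. WT replicate 3, which held most of the *Upk3b* counts, had 0 counts of *Msln* and *Wt1*, and WT replicate 1 also had 0 of *Wt1*. Among WT libraries, replicate 3 had the most normalized counts of *Rspo1* (132), *Pkhd1l1* (59.9) and *Nkain4* (6.84). It had the fewest of *Gpm6a* (84.7), *Bnc1* (992) and *Muc16* (5.13). The part of mesothelium in the *Upk3b* counts was not tested.

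**Figure D4:**
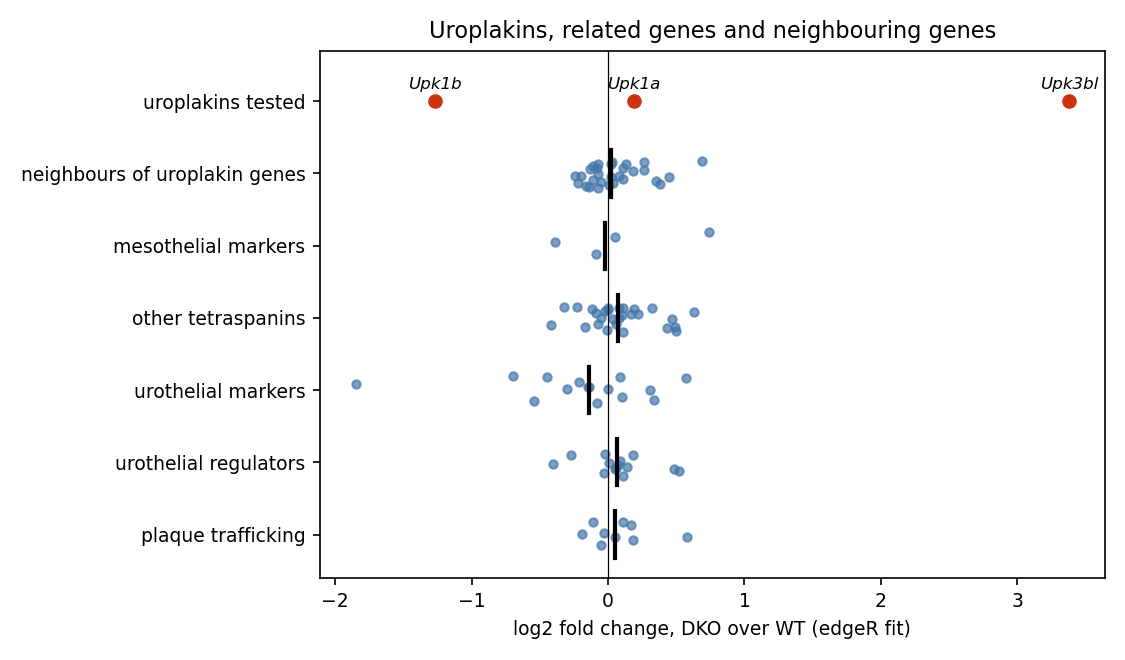
Fitted log2 fold changes between DKO and WT libraries (x axis) of the uroplakins tested (red, named), of the tested genes of the related lists and of the tested neighbours of uroplakin genes (blue points, one per gene, spread vertically for legibility), with a black line at each median. The list medians lie between -0.14 and 0.07, and *Upk3bl* at 3.38 lies to the right of every other point.

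The genes around the members were compared to see whether the differences extended along the chromosome. The 5 genes on either side of each member came to 50 genes apart from the members, of which 29 were tested and none was called by either tool. Their log2 fold changes ran from -0.24 to 0.69 with a median of 0.02, and 2 had an unadjusted p below 0.05. One was *Dtx2*, a regulator of Notch signaling and the gene before *Upk3b*, at 857 normalized counts in WT and 1120 in DKO libraries (log2 fold change 0.38, edgeR adjusted p = 0.666). The other was *Arhgap31*, near *Upk1b* but opposite to it in sign (log2 fold change 0.35, edgeR adjusted p = 0.483). These 2 of 29 were higher in every DKO library than in every WT library, against 7.24% of all genes tested, and 0 were lower in every one. *Rasa4*, a Ras GTPase-activating protein and the next gene after *Upk3bl*, had a log2 fold change of -0.07.

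The genes that flank the pair on chromosome 5, *Dtx2* and *Rasa4*, were thus at 0.38 and -0.07 where *Upk3bl* was at 3.38. Next to *Upk1a*, *Zbtb32* had a log2 fold change of -0.24 and *Cox6b1*, a subunit of cytochrome c oxidase, of 0.13. Both genes next to *Upk2*, *Foxr1* and *Gm9830*, had at most 1 count in any library, while *Upk2* itself reached 41. Next to *Upk1b*, *B4galt4*, a galactosyltransferase, had -0.13 and *4930435E12Rik* no counts, and next to *Upk3a*, *Fam118a* had 0.02 and *5031439G07Rik* -0.07.

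The genes whose pattern over the 6 P4 libraries was most like that of *Upk3bl* were found by Pearson's r of log2 normalized counts among 19894 tested genes with a mean of at least 10. They were *Tulp2* (r = 0.998), *Adgrb1*, an adhesion G protein-coupled receptor (0.995), *Jak3*, a kinase of cytokine receptors (0.992), *Ptprv*, a receptor-type phosphatase (0.99), and *Amt*, an enzyme of glycine cleavage (0.99). These values are over 6 libraries that share the group difference, and serve as a description. *Adgrb1* came closest in size, with 11.2, 11.9 and 21.4 normalized counts in WT and 73.6, 140 and 103 in DKO replicates 1 to 3. *Upk3bl* and all 5 of these genes had their highest value in DKO replicate 2 and, among WT libraries, in replicate 3. Choosing genes by r favours such a shared order, so it adds nothing to the likeness. *Jak3*, *Ptprv* and *Amt* differed about as the groups did but by less, with log2 fold changes of 1.09, 1.05 and 1.12, and *Tulp2* by 0.54.

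Several cell type markers also moved with the genotype label. The 19 skeletal muscle genes summed to 6520 to 7420 CPM in WT and 9590 to 22700 CPM in DKO libraries, with 19 of 19 log2 fold changes above 0, a median of 1.05 and 17 unadjusted p below 0.05. The 9 sebaceous gland genes summed to 2260 to 2630 CPM and 924 to 1460 CPM, with 8 of 9 below 0 and a median of -0.89. Sums for 11 hair follicle genes were 12400 to 14200 CPM in WT and 5120 to 11300 CPM in DKO libraries (median log2 fold change -0.21), and for 10 keratinocyte genes 7280 to 7870 and 8850 to 10500 CPM (0.20). Those for 10 dermal fibroblast genes (14600 to 18200 and 16800 to 22800 CPM) and 9 adipocyte genes (1140 to 1730 and 1070 to 2580 CPM) overlapped, with median log2 fold changes of 0.24 and 0.25. The keratinocyte genes did not move as 1 set. *Krt1* and *Krt10* (log2 fold changes 0.79 and 0.48) were higher in every DKO library than in every WT library. *Krt15* and *Dsg1a* (-0.60 and -0.26) were lower in every DKO library, and the other keratinocyte genes overlapped. No gene of these lists was called by edgeR, and DESeq2 called 10 muscle, 4 sebaceous and 2 adipocyte genes. DKO replicate 1 held the highest muscle sum, 22700 CPM, and the fewest counts in total, 11263863. In normalized counts, its *Upk3bl* level was near that of DKO replicate 3, at 74.9 against 77.6. Its *Upk2* level, 7.89, was the lowest of its group, against 45.2 and 20.9 in DKO replicates 2 and 3. With library sizes taken without the muscle genes, the log2 fold change of *Upk3bl* was 3.36. The part of these cell types in the uroplakin differences was not tested.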

How the data were processed

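RNA-Seq counts of 6 libraries of P4 back skin (3 WT, 3 DKO) were used, grouped by the genotype and age in their labels. Each deposited file gives whole-number read counts by gene and was not normalized. To make them, the authors depleted rRNA, sequenced 150 bp paired-end reads, used Trimmomatic 0.36 for trimming and STAR 2.5.2b for mapping to GRCm38, and assigned reads to genes with featureCounts of Subread 1.5.2. Whether the counting used strand is not given in the sources used here. Symbols were found for 99.3% of the identifiers.

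Counts were analysed with edgeR 4.0.16 in R 4.3.3: filterByExpr, TMM, the quasi-likelihood F test and Benjamini-Hochberg adjustment over 20168 genes. Genes were called at an adjusted p below 0.05 and an absolute log2 fold change above 1, the thresholds of the study, whose tool, DESeq2, was run as an alternative (version 1.42.0). Members below the filter are given as ratios of counts with exact conditional binomial intervals. Fits were tested on simulated data in which only genes of higher mean count were changed. That test does not cover counts as low as those of *Upk2*, *Upk1b* and *Upk3b*. The members and gene lists were chosen with earlier results of these data known. Genes named are the 6 members, the genes called or otherwise the 3 with the smallest p-values in each related list, the nearest gene on either side of each member and any called neighbour, the 5 genes most like *Upk3bl*, and *Kctd1* and *Kctd15*. *Snx31*, *Foxa1*, *Trp63* and the mesothelial markers other than *Rspo1*, *Gpm6a* and *Bnc1* were chosen after their values were seen. So were *Krt1*, *Krt10*, *Krt15*, *Dsg1a* and *Arhgap31*. The p-values measure the spread between mice, with 3 per group. Alternatives were DESeq2, RLE size factors, total counts, other filters on low counts, a replicate block, library sizes without muscle genes, no fold threshold and each replicate left out.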

Additional observations from a re-analysis of the deposited data

How the results depend on the processing

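Counts of calls depended on the processing more than fold changes did. The 14 genes called were 154 with DESeq2, 22 with total counts and 210 with no filter on low counts, and 2 to 36 when 1 replicate was left out. The 1 member called, *Upk3bl*, became 2 with *Upk2* under DESeq2 and with no filter, and 0 with at least 10 counts in every library, which leaves *Upk3bl* untested. Leaving out 1 replicate gave 0 to 2 members: 0 without any single WT library or DKO replicate 3, 1 without DKO replicate 2, and 2 without DKO replicate 1. The log2 fold change of *Upk3bl* stayed between 3.08 and 3.73 in 12 alternatives. With 1 replicate left out, that of *Upk2* ran from 4.25, a lower bound without WT replicate 1 that sets WT at 3 counts over the group, to 6.58, of *Upk1b* from -1.83 to -1.06, and of *Upk3b* from -1.68 to -0.45. That of *Upk1a* ran from -0.07 to 0.40. No gene of the 5 related lists or of the neighbours was called under any of 14 alternatives. With 1 replicate left out, list medians ran from -0.05 to 0.19 (plaque trafficking), -0.10 to 0.12 (urothelial regulators), -0.35 to -0.01 (urothelial markers), 0 to 0.11 (other tetraspanins) and -0.12 to 0.11 (mesothelial markers), and the neighbours' median from -0.08 to 0.08. The cause of these shifts was not tested.

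With the number shared in the labels as a replicate block, 35 genes and the same 1 member were called. The labels do not say what the number marks, and deviations of the 5 same-numbered WT and DKO library pairs correlated at -0.014 to 0.219, not all above 0.1, so they were not treated as pairs. The 4 pairs with different numbers were at -0.137 to -0.103. Every library correlated best with a library of its own number, which is a hint from the data. Deviations from a group mean cancel out over its libraries, so the values of different-numbered and same-numbered pairs are tied to each other. The paper calls the WT mice littermates of the DKO mice, but does not tie the label numbers to litters. No fit was made of members in epidermis, whose files list 0, and *Upk2* and *Upk3b* have no value under the block or the stricter filter.

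Depth also limits the members: 3 counts are 0.17 to 0.266 CPM, and *Upk2* in WT and *Upk3a* lie at or below that. *Upk3b* lay at or just above it in DKO libraries, with 3, 3 and 4 counts. Intervals and floors do not cover PCR duplication or the spread between mice.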
